A study of Xenopus laevis with 24 samples.

Results

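Dorsal marginal zones (DMZ) and ventral marginal zones (VMZ) of the African clawed frog, *Xenopus laevis*, were compared at gastrula stage 11 by RNA sequencing of explants. The comparison rests on 4 of the 24 libraries of the series, namely the count columns labelled DMZ at stage 11 and VMZ. Each group has replicates 1 and 2, and columns of the same number were paired. A DMZ library was made from 5 or 6 dorsal explants out of 50 cut at stage 10.5 and cultured in Steinberg's solution. A VMZ library was made from 5 ventral explants cut at stage 10.5. Both were collected at stage 11, from embryos raised at 16 °C. No genotype, strain or added agent is named in the labels for either group. Each library pools explants, so it gives a mean over several animals. The labels do not say whether replicates 1 and 2 came from separate clutches. The p-values therefore measure only the spread between libraries that remains once a shift shared by same-numbered libraries is removed, estimated over all 24.

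The marginal zone is the equatorial ring of the gastrula from which most mesoderm arises. Its dorsal sector holds the Spemann organizer, which secretes antagonists of BMP, Wnt and Nodal ligands, induces the overlying ectoderm to become neural plate, and forms prechordal mesoderm and notochord. The ventral sector is exposed to BMP and Wnt8 signals and contributes blood, lateral mesoderm and posterior tissue. Isolated dorsal zones, Keller explants among them, lengthen in culture by convergent extension, in which cells intercalate between each other. *X. laevis* is an allotetraploid, and many genes exist as an L and an S copy (homeologs), which are counted as separate gene models here.

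The total count was 30.2 M and 7.38 M in DMZ replicates 1 and 2, and 31 M and 39.8 M in VMZ replicates 1 and 2, so low levels in DMZ replicate 2 carry the largest counting error. The tissue labels were checked on marker genes, as sums of CPM (counts scaled to an equal library total, with TMM factors). The 18 models of organizer markers summed to 1219.9 and 1928 CPM in the DMZ, against 208 and 158 CPM in the VMZ, and 16 of the 18 were called higher. These marker genes are counted again in the organizer and Hedgehog lists below, so their calls there are not separate from this check. The 18 ventral markers summed to 879 and 516 CPM in the DMZ, against 1733 and 1044 CPM in the VMZ. Only 2 of the 18 were called lower, and both were copies of 1 gene, *wnt8a*. Summed markers of neighbouring tissues also differed between the groups. The 15 endoderm markers summed to 12.1 and 81.9 CPM in the DMZ, against 263 and 102 CPM in the VMZ, and 3 of the 15 were called lower. Much of the VMZ sums came from *mixer.L*, at 2.41 and 23.9 CPM in the DMZ against 119 and 42.9 CPM in the VMZ. This gene is also in the pan-mesodermal and Nodal lists below. The median log2 difference of the 15 was -3.96 in the replicate 1 pair and -0.23 in the replicate 2 pair. The 17 non-neural ectoderm markers summed to 1550.1 and 961 CPM in the DMZ, against 2578 and 2666 CPM in the VMZ, and 4 of the 17 were called lower. The part of endoderm and ectoderm cells in the differences below was not tested. None of these markers was at 0 in any library except *shh.L* in VMZ replicate 1. Further, the 12 neural plate markers summed to 1572 and 2498 CPM in the DMZ, against 847 and 815 CPM in the VMZ. Of these 9 were called higher. The 11 pan-mesoderm markers summed to 1247 and 1389 CPM in the DMZ, against 1827 and 895 CPM in the VMZ, with 1 called higher. The part of these tissues in the differences was not tested either. In bulk samples, fewer cells of a type and less RNA per cell cannot be told apart.

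Of 31349 gene models tested, 1635 (5.22%) were higher in the DMZ than in the VMZ and 1079 (3.44%) lower, together 8.66%. The call was an adjusted p under 0.05 (edgeR's quasi-likelihood test with the replicate number as a block, Benjamini-Hochberg adjustment). All adjusted p-values for genes below come from this fit unless another is named. Both DMZ libraries lay above both VMZ libraries for 1558 of the higher models, and below them for 1023 of the lower models. Over all tested models, 19% had both DMZ libraries above and 22% had both below. The difference was at least 2-fold for 1023 of the higher and 652 of the lower models. The median log2 fold change over all models was -0.05 (0.04 with upper quartile scaling, which gave 2306 higher and 815 lower). The block moved these counts: without it 701 (2.24%) were higher and 284 (0.906%) lower, and all 985 were among the 2714. Leaving out a library moved them as well. Both counts fell without DMZ replicate 1, DMZ replicate 2 or VMZ replicate 2, and both rose without VMZ replicate 1. DESeq2 with the block called 2223 of 25879 models higher (8.59%) and 1802 lower (6.96%). In the authors' deposited table of regularised log2 values, the DMZ and VMZ group values differed in the same direction for 2714 of the 2714 called models. Those values come from the same libraries, so the match in direction is no separate evidence for the calls. Below, a pair of values is given as replicate 1 and then replicate 2, and log2 fold changes are DMZ over VMZ ± SE. Calls per gene list are to be read beside the 5.22% higher and 3.44% lower of all models.

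Secreted organizer factors were higher in the DMZ for 18 of 42 models tested (5.22% of all models were) and lower for 0 (3.44% of all), with a median log2 fold change of 1.59 over the list and -0.05 over all models. Of 9 BMP antagonist models 5 were higher and 4 were not called. *chrd.2.L*, named as a relative of the Chordin gene *chrd*, was at 200.3 and 358 CPM in the DMZ, against 0.40 and 0.405 CPM in the VMZ (adjusted p = 1.10e-08, log2 fold change 9.41 ± 0.42). *fst.L*, which encodes the activin and BMP binding protein Follistatin, was at 15.0 and 23.0 CPM in the DMZ, against 1.2 and 0.405 CPM in the VMZ (adjusted p = 0.00034, log2 fold change 4.57 ± 0.59). Its copy *fst.S* was at 3.8 and 6.78 CPM in the DMZ against 0.80 and 0.248 CPM in the VMZ (3.3 ± 0.74, adjusted p = 0.0139). *fst.S* was not called without DMZ replicate 1 (adjusted p = 0.0506) or VMZ replicate 2 (0.168). In all 3 cases both DMZ libraries were above both VMZ libraries, which held little of each transcript. The BMP-family ligand of the organizer was higher from both copies: *admp.L* stood at 69.3 and 92.8 CPM in the DMZ, against 1.11 and 0.99 CPM in the VMZ (adjusted p = 1.42e-05, log2 fold change 6.29 ± 0.53). The level of *admp.S* was 32.1 and 80.5 CPM in the DMZ, against 0.40 and 0.743 CPM in the VMZ (adjusted p = 4.61e-05, log2 fold change 6.55 ± 0.64). Each copy was higher in replicate 2 than in replicate 1 of the DMZ.

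The secreted kinase family *pkdcc* was called in 5 models. *pkdcc.1.L* was at 66.1 and 62.1 CPM in the DMZ, against 11.5 and 5.07 CPM in the VMZ (adjusted p = 8.78e-05, log2 fold change 2.97 ± 0.33). The level of *pkdcc.2.S* was 5.15 and 8.32 CPM in the DMZ, against 0.369 and 0.225 CPM in the VMZ (adjusted p = 0.0004, log2 fold change 4.48 ± 0.59). The replicates of each tissue lay close together beside the distance between tissues. The Wnt antagonist gene *sfrp2.S* was at 81.8 and 122 CPM in the DMZ, against 27.3 and 40.4 CPM in the VMZ (adjusted p = 0.00036, log2 fold change 1.59 ± 0.22), a smaller difference with no overlap. The midkine gene *mdk.S*, for a heparin-binding growth factor, was at 68.6 and 32.6 CPM in the DMZ, against 18.3 and 7.7 CPM in the VMZ (adjusted p = 0.00244, log2 fold change 1.99 ± 0.33), with replicate 1 the higher in both tissues.

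Calls of other antagonists were lost with 1 or another library left out, as were many calls over all models. The head-inducing Wnt antagonist gene *dkk1.L* was at 0.543 and 7.81 CPM in the DMZ, against 0.185 and 0.27 CPM in the VMZ (adjusted p = 0.0497, log2 fold change 3.8 ± 1.13). *dkk1.L* was not called without DMZ replicate 2 (adjusted p = 0.5), VMZ replicate 1 (0.116), VMZ replicate 2 (0.314) or the block (0.071). Its copy *dkk1.S* was at 0.237 and 7.68 CPM in the DMZ against 0.123 and 0.0675 CPM in the VMZ (5.02 ± 1.43, adjusted p = 0.0446). *dkk1.S* was not called without DMZ replicate 2 (adjusted p = 0.628), VMZ replicate 1 (0.095) or VMZ replicate 2 (0.318). DMZ replicate 2 alone held a high level of both, and without it the log2 fold changes were 1.49 and 1.38. The Wnt antagonist gene *sfrp1.L* (6.95 and 8.7 CPM in the DMZ, 1.91 and 0.113 CPM in the VMZ) differed as well (adjusted p = 0.0392, log2 fold change 2.95 ± 0.81). Its log2 fold change was 6.31 with VMZ replicate 1 left out and 1.77 with its replicate 2 left out. *sfrp1.L* was not called without DMZ replicate 1 (adjusted p = 0.172), DMZ replicate 2 (0.0832), VMZ replicate 2 (0.146) or the block (0.0575). *lefty.L*, for a feedback inhibitor of Nodal, was at 38.7 and 37.8 CPM in the DMZ, against 16.9 and 9.32 CPM in the VMZ and just missed the threshold (adjusted p = 0.0505, log2 fold change 1.58 ± 0.47). Its copy *lefty.S* was at 18.6 and 16.6 CPM in the DMZ, against 4.71 and 2.05 CPM in the VMZ (adjusted p = 0.0361, log2 fold change 2.43 ± 0.66). *lefty.S* was not called without DMZ replicate 1 (adjusted p = 0.148), DMZ replicate 2 (0.0904), VMZ replicate 1 (0.0504), VMZ replicate 2 (0.288) or the block (0.0768). Each *lefty* copy was higher in both DMZ libraries. *cer1.S*, for the Nodal, BMP and Wnt antagonist Cerberus, was at 1.36 and 27.8 CPM in the DMZ against 22.6 and 2.0 CPM in the VMZ (-0.97 ± 1.45, adjusted p = 0.735). *frzb.S*, for a secreted Frizzled-related protein, was at 1.53 and 27.3 CPM in the DMZ against 15.8 and 4.93 CPM in the VMZ (-1.37 ± 1.18, adjusted p = 0.515). For both of these the DMZ replicates were the extremes, 1 below and 1 above the VMZ libraries. Of the 18 higher calls, 13 held with each of the 4 libraries left out in turn, and without VMZ replicate 2 the list had 13 higher and 1 lower.

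Organizer transcription factors showed 22 of 42 models higher and 0 lower (median 1.39). The forkhead gene *foxa4.S*, of notochord and floor plate, was at 167 and 229.8 CPM in the DMZ, against 26.7 and 6.21 CPM in the VMZ (adjusted p = 0.000986, log2 fold change 3.54 ± 0.51). *foxa4.L* was at 157 and 242 CPM in the DMZ, against 45.5 and 10.8 CPM in the VMZ (adjusted p = 0.00324, log2 fold change 2.83 ± 0.48). Both copies were lowest in VMZ replicate 2 and highest in DMZ replicate 2, and *foxa4.L* had a log2 fold change of 4.27 without VMZ replicate 1. The forkhead gene *foxb1.S* was at 27.8 and 38.4 CPM in the DMZ, against 0.707 and 1.04 CPM in the VMZ (adjusted p = 3.00e-05, log2 fold change 5.21 ± 0.51). Its copy *foxb1.L* was at 35.1 and 56.3 CPM in the DMZ, against 4.46 and 5.4 CPM in the VMZ (adjusted p = 0.000148, log2 fold change 3.19 ± 0.38). *otx2.S*, of the anterior head territory, was at 53.3 and 64.5 CPM in the DMZ, against 1.29 and 0.338 CPM in the VMZ (adjusted p = 0.00217, log2 fold change 6.21 ± 0.95). *lhx1.S*, a LIM homeobox gene of the organizer, was at 80.7 and 139 CPM in the DMZ, against 18.1 and 8.6 CPM in the VMZ (adjusted p = 0.00163, log2 fold change 2.96 ± 0.46). No library of either tissue overlapped with the other for these genes.

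Others of these genes had 2 gene models of 1 name or a weaker copy. *zeb2.S*, for a Smad-interacting repressor, was called in 2 models, of which 1 was at 26.8 and 39.0 CPM in the DMZ against 12.2 and 5.04 CPM in the VMZ (1.91 ± 0.33, adjusted p = 0.00239). The homeobox gene *gsc.L* was at 2.27 and 32.1 CPM in the DMZ, against 0.123 and 0.158 CPM in the VMZ (adjusted p = 0.00067, log2 fold change 6.47 ± 0.92). The level of *gsc.S* was 5.6 and 22.1 CPM in the DMZ against 1.88 and 1.22 CPM in the VMZ (2.83 ± 0.71, adjusted p = 0.0245). Both were far higher in DMZ replicate 2 than in replicate 1, and *gsc.S* was not called without DMZ replicate 2 (adjusted p = 0.111), VMZ replicate 2 (0.243) or the block (0.0785). The notochord homeobox gene *not.L* was at 107 and 149 CPM in the DMZ, against 49.7 and 62.0 CPM in the VMZ (adjusted p = 0.0236, log2 fold change 1.19 ± 0.30), with a log2 fold change of 2.15 for *not.S*. *not.L* was not called without DMZ replicate 1 (adjusted p = 0.0757), DMZ replicate 2 (0.131), VMZ replicate 1 (0.0884), VMZ replicate 2 (0.17) or the block (0.0619). Of the 22 calls, 13 held with each library left out in turn. Without VMZ replicate 2 the list had 13 higher and 1 lower, and without DMZ replicate 2 it had 18 higher and 2 lower.

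**Figure D1:**
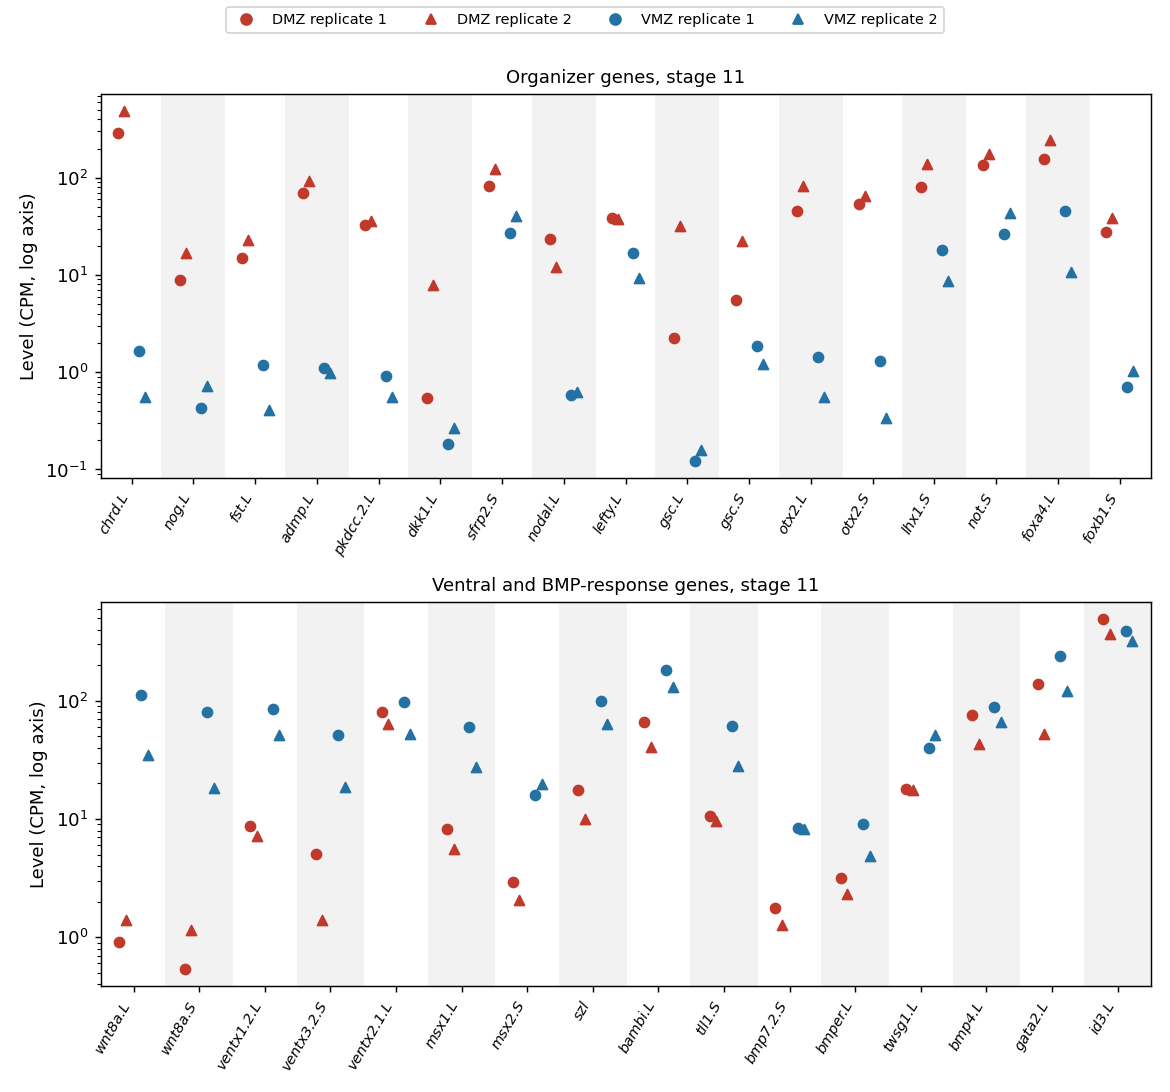
Levels in CPM (log axis) of organizer genes (upper panel) and of ventral and BMP-response genes (lower panel) in the DMZ (red) and VMZ (blue) libraries at stage 11, with a circle for replicate 1 and a triangle for replicate 2. *otx2.S* stood at 53.3 and 64.5 CPM in the DMZ against 1.29 and 0.338 in the VMZ, and *gsc.L* at 2.27 and 32.1 against 0.123 and 0.158. In the lower panel *wnt8a.L* stood at 0.916 and 1.41 CPM in the DMZ against 113 and 34.9 in the VMZ, a call lost without DMZ replicate 1 (adjusted p = 0.0617), while the libraries of the tissues overlapped for *ventx2.1.L*.

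Notochord and axial mesoderm genes, many of which are also in the organizer and Hedgehog lists, had 15 of 53 models higher and 0 lower (median 0.51). Outside those lists the calls were for T-box and matrix genes. Of 3 models named *t2.S*, for a Brachyury-related T-box factor, 1 was at 20.6 and 11.3 CPM in the DMZ, against 2.0 and 0.203 CPM in the VMZ (adjusted p = 0.00034, log2 fold change 4.0 ± 0.53). Another was at 7.77 and 6.66 CPM in the DMZ, against 0.769 and 0.113 CPM in the VMZ (adjusted p = 9.17e-05, log2 fold change 4.15 ± 0.47). Replicate 1 was the higher in both tissues, and the log2 fold change of the first was 6.09 without VMZ replicate 1. *plod2.L*, for a lysyl hydroxylase that modifies collagen, was at 109 and 20.0 CPM in the DMZ, against 7.6 and 1.6 CPM in the VMZ (adjusted p = 0.0101, log2 fold change 3.79 ± 0.76). *plod2.L* was not called without DMZ replicate 1 (adjusted p = 0.118) or VMZ replicate 2 (0.132). *lama1.L*, for a laminin chain, was at 34.6 and 14.5 CPM in the DMZ, against 5.63 and 1.04 CPM in the VMZ (adjusted p = 0.0173, log2 fold change 3.01 ± 0.67). *lama1.L* was not called without DMZ replicate 1 (adjusted p = 0.138), VMZ replicate 2 (0.171) or the block (0.0644). For both, every DMZ library was above every VMZ library, and replicate 1 was the higher of each tissue. Leaving out 1 library gave 9 to 13 higher calls.

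The Hedgehog pathway, in which a secreted ligand releases Smoothened from inhibition by Patched and Gli factors act in the nucleus, had 15 of 37 models higher and 2 lower (median 0.66). The ligand gene *shh.L* was at 3.36 and 6.4 CPM in the DMZ, against 0 and 0.045 CPM in the VMZ, and the VMZ levels stand for 0 and 2 counts, so no fold is given. The ligand gene *dhh.S* (desert hedgehog) was at 14.6 and 7.68 CPM in the DMZ, against 6.95 and 2.9 CPM in the VMZ (adjusted p = 0.0441, log2 fold change 1.22 ± 0.36), with DMZ replicate 2 close to VMZ replicate 1. It was not called without DMZ replicate 1 (adjusted p = 0.362), VMZ replicate 2 (0.352) or the block (0.172), and its log2 fold change was 0.81 without VMZ replicate 2. The receptor gene *ptch1.L* was at 26.7 and 21.5 CPM in the DMZ against 9.01 and 12.3 CPM in the VMZ in 1 of 2 models (1.2 ± 0.31, adjusted p = 0.0231). *ptch1.L* was not called without DMZ replicate 1 (adjusted p = 0.24), VMZ replicate 1 (0.103), VMZ replicate 2 (0.115) or the block (0.0652).

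Among the transducers, *gli1.L* was at 20.9 and 23.3 CPM in the DMZ, against 1.91 and 2.18 CPM in the VMZ (adjusted p = 0.000251, log2 fold change 3.44 ± 0.44). *gli2.S* was at 37.8 and 29.3 CPM in the DMZ, against 5.32 and 4.73 CPM in the VMZ (adjusted p = 3.41e-05, log2 fold change 2.74 ± 0.29). Its copy *gli2.L* was at 42.7 and 32.0 CPM in the DMZ, against 15.1 and 12.3 CPM in the VMZ (adjusted p = 0.00224, log2 fold change 1.44 ± 0.25). The DMZ libraries lay above the VMZ libraries for all 3, and the difference was larger for the S copy of *gli2*. *gli3.L*, whose product acts mainly as a repressor, was at 47.0 and 44.5 CPM in the DMZ against 33.7 and 18.9 CPM in the VMZ (0.79 ± 0.32, adjusted p = 0.135) and did not pass the test. Its copy *gli3.S* was called higher, at 5.66 and 2.43 CPM in the DMZ against 0.953 and 0.428 CPM in the VMZ (2.57 ± 0.70, adjusted p = 0.0365). *gli3.S* was not called without DMZ replicate 1 (adjusted p = 0.31), DMZ replicate 2 (0.0573), VMZ replicate 1 (0.103), VMZ replicate 2 (0.208) or the block (0.128). Both copies stood higher in each DMZ library. The inhibitor gene *sufu.L* was at 6.21 and 5.5 CPM in the DMZ against 6.71 and 8.51 CPM in the VMZ (-0.35 ± 0.27, adjusted p = 0.463) and was not called. Its more abundant copy *sufu.S* was at 48.7 and 37.5 CPM in the DMZ against 34.8 and 30.1 CPM in the VMZ. That copy had the opposite sign and was not called either (0.41 ± 0.20, adjusted p = 0.213). The homeobox gene *nkx6-2.L*, a Hedgehog response gene of the ventral neural tube, was called in 2 models, at 12.4 and 12.5 and at 14.2 and 15.9 CPM in the DMZ, against 0.123 and 0.405 and 0.0615 and 0.45 CPM in the VMZ (log2 fold changes 5.46 and 5.73). Its copy *nkx6-2.S* was called higher as well (2.66 ± 0.65, adjusted p = 0.0209). The other response genes of the list were not called. Their log2 fold changes were -0.86 for *foxa2.L*, 0.08 for *foxf1.L*, -2.01 for *foxf1.S* and 0.08 for *nkx6-1.L*. Both copies of *nkx2-2* had very low levels. The co-receptor gene *cdon.S* was called lower, at 57.3 and 43.9 CPM in the DMZ, against 102 and 105 CPM in the VMZ (adjusted p = 0.00201, log2 fold change -1.04 ± 0.18). *boc.L*, for a related co-receptor, was at 16.8 and 10.4 CPM in the DMZ against 6.83 and 9.75 CPM in the VMZ (0.66 ± 0.26, adjusted p = 0.129). Of the 15 higher calls 10 held with each library left out in turn, and leaving out 1 library gave 10 to 14 higher.

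**Figure D2:**
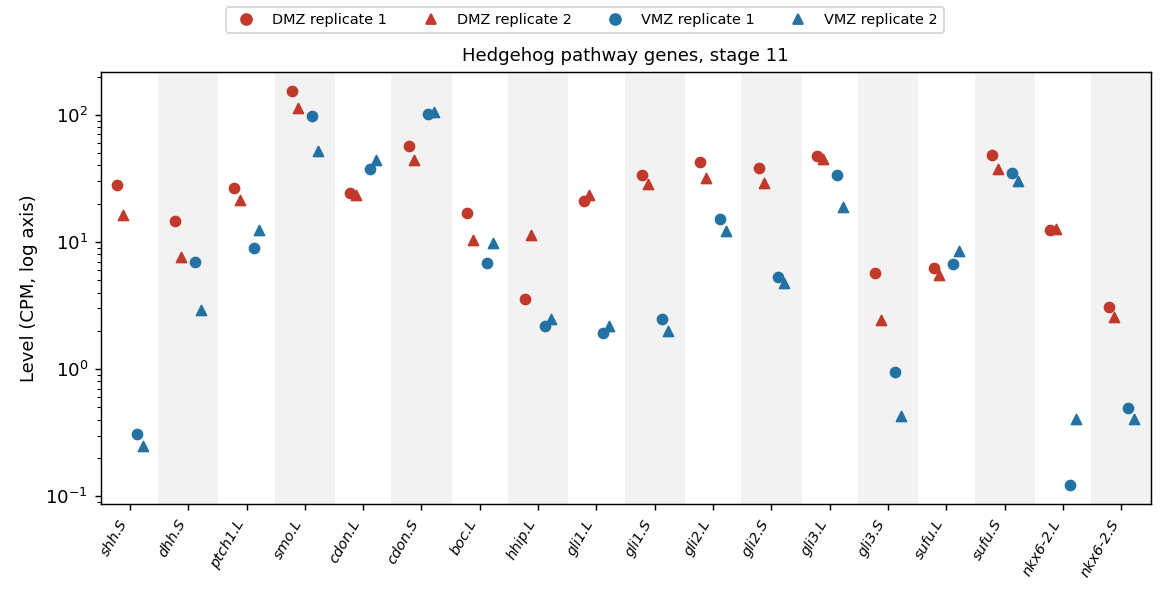
Levels in CPM (log axis) of Hedgehog pathway genes in the DMZ (red) and VMZ (blue) libraries at stage 11, with a circle for replicate 1 and a triangle for replicate 2; the first of 2 models is drawn for *ptch1.L* and *nkx6-2.L*. The Gli1 and Gli2 genes stood higher in the DMZ, as for *gli1.L* at 20.9 and 23.3 CPM against 1.91 and 2.18 in the VMZ, and *cdon.S* stood lower, at 57.3 and 43.9 against 102 and 105.

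Genes of the ventral BMP group, which includes BMP ligands, their feedback inhibitors and ventral homeobox genes, were lower for 7 of 58 models and higher for 0 (median -0.92). Both DMZ libraries lay below both VMZ libraries for 34 of the 58, against 22% of all models. The Tolloid-like protease gene *tll1.S*, whose product cleaves Chordin, was at 10.5 and 9.6 CPM in the DMZ, against 61.4 and 28.1 CPM in the VMZ (adjusted p = 0.00226, log2 fold change -2.11 ± 0.36). *tll1.S* was not called without DMZ replicate 1 (adjusted p = 0.0542). The ligand gene *bmp7.2.S* was at 1.76 and 1.28 CPM in the DMZ, against 8.34 and 8.24 CPM in the VMZ (adjusted p = 0.00579, log2 fold change -2.32 ± 0.46). *bmp7.2.S* was not called without DMZ replicate 2 (adjusted p = 0.0513) or the block (0.0552). The homeobox gene *msx2.S* was at 2.92 and 2.05 CPM in the DMZ, against 16.1 and 19.6 CPM in the VMZ (adjusted p = 0.0346, log2 fold change -2.95 ± 0.79). *msx2.S* was not called without DMZ replicate 1 (adjusted p = 0.25), DMZ replicate 2 (0.117), VMZ replicate 2 (0.218) or the block (0.0725). In each case the VMZ libraries were the higher without overlap.

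The spread left large folds of other members below the threshold. *ventx3.2.S*, a ventral homeobox gene, was at 5.05 and 1.41 CPM in the DMZ, against 51.7 and 18.8 CPM in the VMZ (adjusted p = 0.0568, log2 fold change -3.37 ± 1.02). *msx1.L* was at 8.24 and 5.63 CPM in the DMZ, against 60.2 and 27.4 CPM in the VMZ (adjusted p = 0.151, log2 fold change -2.61 ± 1.07). *bambi.L*, for a pseudoreceptor that dampens BMP signals, was at 66.7 and 40.3 CPM in the DMZ, against 184 and 130.4 CPM in the VMZ (adjusted p = 0.278, log2 fold change -1.56 ± 0.84). DESeq2 with the block gave these 3 an adjusted p of 0.00763, 0.0536 and 0.164. *twsg1.L*, for the Chordin-binding protein Twisted gastrulation, was at 17.9 and 17.7 CPM in the DMZ, against 40.1 and 51.4 CPM in the VMZ (adjusted p = 0.124, log2 fold change -1.39 ± 0.53). These 4 genes had no overlap between tissues, but *ventx2.1.L* did, at 80.2 and 64.3 CPM in the DMZ against 97.1 and 52.0 CPM in the VMZ (-0.00 ± 0.44, adjusted p = 1). None of the 7 calls held with each library left out in turn: 1 to 4 models were lower then, and 1 without the block.

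Components that transduce BMP signals showed 3 of 26 models higher (5.22% of all models were) and 2 lower (3.44% of all), with a median of -0.17. The receptor gene *acvr1.S* was at 105 and 116 CPM in the DMZ, against 48.1 and 63.1 CPM in the VMZ (adjusted p = 0.00466, log2 fold change 1.0 ± 0.19), higher in each DMZ library. The effector gene *smad1.L* was at 72.3 and 76.7 CPM in the DMZ, against 167 and 184 CPM in the VMZ (adjusted p = 0.00358, log2 fold change -1.24 ± 0.23), with both DMZ libraries below. *smad1.L* was not called without DMZ replicate 1 (adjusted p = 0.0653). A model of its copy *smad1.S* was at 50.7 and 71.7 CPM in the DMZ against 77.4 and 105 CPM in the VMZ (-0.58 ± 0.22, adjusted p = 0.114).

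Wnt pathway genes moved both ways, with 17 of 108 models higher and 9 lower (median -0.03, and 0.06 with upper quartile scaling). The ligand copies *wnt8a.L* and *wnt8a.S* headed the lower calls of named genes. *wnt8a.L* was at 0.916 and 1.41 CPM in the DMZ, against 113 and 34.9 CPM in the VMZ (adjusted p = 0.00226, log2 fold change -6.07 ± 0.97). *wnt8a.L* was not called without DMZ replicate 1 (adjusted p = 0.0617). *wnt8a.S* was at 0.543 and 1.15 CPM in the DMZ, against 81.2 and 18.3 CPM in the VMZ (adjusted p = 0.0033, log2 fold change -6.09 ± 1.03). *wnt8a.S* was not called without DMZ replicate 1 (adjusted p = 0.0775). Of 39 receptor and co-receptor models 9 were higher and 1 lower (median 0.04). *fzd7.L*, for a Frizzled of the gastrula mesoderm, was at 882 and 916 CPM in the DMZ, against 324 and 399.7 CPM in the VMZ (adjusted p = 0.00036, log2 fold change 1.31 ± 0.18). *fzd4.L* was at 18.6 and 53.0 CPM in the DMZ, against 2.61 and 6.08 CPM in the VMZ (adjusted p = 0.00204, log2 fold change 2.98 ± 0.48). *fzd2.S* was at 38.2 and 35.5 CPM in the DMZ, against 16.2 and 12.7 CPM in the VMZ (adjusted p = 0.000117, log2 fold change 1.35 ± 0.16). Both DMZ libraries were above both VMZ libraries for all 3. The receptor tyrosine kinase gene *ror2.L*, which acts in Wnt5a signalling, was at 433 and 247 CPM in the DMZ, against 90.7 and 22.4 CPM in the VMZ (adjusted p = 0.00259, log2 fold change 2.66 ± 0.43). *ror2.S* was at 112 and 67.7 CPM in the DMZ, against 17.1 and 1.94 CPM in the VMZ (adjusted p = 0.00672, log2 fold change 3.38 ± 0.64). Each of the *ror2* copies was lowest in VMZ replicate 2, and without VMZ replicate 1 *ror2.S* had a log2 fold change of 5.36.

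Of 29 models of the pathway's transduction 3 were higher and 5 lower (median 0.01), and of 19 response genes 5 were higher and 1 lower (median 0.04). The repressor gene *tcf7l1.L* was at 178 and 211 CPM in the DMZ against 77.0 and 83.2 CPM in the VMZ (1.27 ± 0.17, adjusted p = 0.00028). Its copy *tcf7l1.S* was at 211 and 282 CPM in the DMZ against 88.0 and 106 CPM in the VMZ (1.34 ± 0.16, adjusted p = 0.000117). *ccnd1.S*, the cyclin D1 gene, was at 101 and 93.8 CPM in the DMZ, against 45.5 and 28.2 CPM in the VMZ (adjusted p = 0.00242, log2 fold change 1.4 ± 0.24). The intracellular relay gene *dvl3.L* (Dishevelled) was lower, at 29.4 and 32.1 CPM in the DMZ, against 70.3 and 106 CPM in the VMZ (adjusted p = 0.0033, log2 fold change -1.49 ± 0.27), with no overlap. Without the block 3 of the pathway's models were lower, and without DMZ replicate 1 the pathway had 13 higher and 1 lower, which was *dvl3.L*.

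FGF pathway genes were higher for 13 of 46 models and lower for 3 (median 0.56), and 10 of the higher ones were feedback regulators, which FGF signalling itself induces in many tissues. *spry2.S* was at 58.9 and 44.0 CPM in the DMZ, against 26.5 and 12.4 CPM in the VMZ (adjusted p = 0.000437, log2 fold change 1.44 ± 0.20). *spry2.L* was at 58.8 and 52.0 CPM in the DMZ, against 31.0 and 13.6 CPM in the VMZ (adjusted p = 0.00328, log2 fold change 1.35 ± 0.25). *spred1.L*, of the same inhibitor family, was at 35.4 and 31.2 CPM in the DMZ, against 16.5 and 7.81 CPM in the VMZ (adjusted p = 0.00123, log2 fold change 1.48 ± 0.24). VMZ replicate 2 was the lowest library for all 3, and without it *spry2.L* had a log2 fold change of 0.85. The decoy receptor gene *fgfrl1.L* was at 2.37 and 3.2 CPM in the DMZ, against 0.431 and 0.36 CPM in the VMZ (adjusted p = 0.000612, log2 fold change 2.79 ± 0.41). The ligand gene *fgf8.L* was at 53.3 and 48.6 CPM in the DMZ, against 26.6 and 16.3 CPM in the VMZ (adjusted p = 0.00439, log2 fold change 1.25 ± 0.24), with no overlap. *fgf8.L* was not called without DMZ replicate 1 (adjusted p = 0.0526) or VMZ replicate 2 (0.106). Without the block 7 were higher and 0 lower, and over all models 985 of the 2714 calls remained without it. The FGF counts also fell with DMZ replicate 1 or VMZ replicate 2 left out, as the counts over all models did.

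Nodal pathway genes had 8 of 40 models higher and 5 lower (median -0.32), and 4 and 1 without the block. The ligand gene *nodal.L* was at 23.4 and 12.2 CPM in the DMZ, against 0.584 and 0.63 CPM in the VMZ (adjusted p = 0.000269, log2 fold change 4.88 ± 0.62). No other ligand model of the list was called higher, and a further ligand model was among the lower calls. *nodal1.L* was at 0.0678 and 0.64 CPM in the DMZ against 2.12 and 1.85 CPM in the VMZ (-3.1 ± 1.02, adjusted p = 0.0718). *nodal2.L* was at 0 and 0.512 CPM in the DMZ against 2.83 and 1.49 CPM in the VMZ (adjusted p = 0.0783). Neither was called. Of the organizer genes that respond to Nodal, *gsc* and *lhx1* are given above. Response genes of the list went both ways. The homeobox gene *mixer.S* was called lower (adjusted p = 0.0225, log2 fold change -4.1 ± 1.01), but not without the block (adjusted p = 0.159). Its levels were 0.17 and 3.2 CPM in the DMZ against 19.3 and 10.3 CPM in the VMZ. *mixer.L* had a log2 fold change of -3.19 and was not called (adjusted p = 0.0814). *foxh1.L*, for the Smad partner of Nodal signalling, was lower, at 57.7 and 48.8 CPM in the DMZ, against 83.7 and 122 CPM in the VMZ (adjusted p = 0.016, log2 fold change -0.93 ± 0.22). *foxh1.L* was not called without DMZ replicate 2 (adjusted p = 0.129) or VMZ replicate 2 (0.186). Both *nodal.L* and *foxh1.L* had no overlap between tissues.

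Notch pathway genes were higher for 11 of 44 models and lower for 2 (median 0.04), and for 4 and 2 without VMZ replicate 2. The bHLH repressor gene *hes1.L* was at 27.1 and 34.4 CPM in the DMZ, against 8.86 and 9.9 CPM in the VMZ (adjusted p = 0.000437, log2 fold change 1.7 ± 0.24). *lfng.L*, for the glycosyltransferase Lunatic fringe, was at 69.4 and 54.0 CPM in the DMZ, against 25.1 and 28.5 CPM in the VMZ (adjusted p = 0.00154, log2 fold change 1.19 ± 0.19). *lfng.S* was at 46.3 and 56.5 CPM in the DMZ, against 14.1 and 26.3 CPM in the VMZ (adjusted p = 0.00692, log2 fold change 1.36 ± 0.27). The VMZ libraries were lower in each case. The receptor gene *notch2.S* was at 13.3 and 7.42 CPM in the DMZ against 3.44 and 1.31 CPM in the VMZ (2.18 ± 0.51, adjusted p = 0.0173). *notch2.S* was not called without DMZ replicate 1 (adjusted p = 0.18) or VMZ replicate 2 (0.184). In the retinoic acid list 2 of 36 models were higher and 0 lower (median 0.11), a share of higher calls near the 5.22% of all models. They were *rarg.L*, for the receptor gamma, at 137 and 124 CPM in the DMZ, against 62.5 and 57.8 CPM in the VMZ (adjusted p = 0.0002, log2 fold change 1.12 ± 0.14), and *cyp26c1.S*, for an enzyme that breaks retinoic acid down. The second was at 4.37 and 7.94 CPM in the DMZ, against 0.677 and 0.495 CPM in the VMZ (adjusted p = 0.0105, log2 fold change 3.32 ± 0.69). *cyp26c1.S* was not called without VMZ replicate 2 (adjusted p = 0.142).

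The neural plate list had 31 of its 104 models higher and 0 lower (median 0.75). The SoxB1 gene *sox2.L*, of neural progenitors, had 2 models, at 25.0 and 49.9 and at 167 and 203 CPM in the DMZ, against 11.1 and 7.32 and 66.3 and 48.9 CPM in the VMZ (log2 fold changes 1.96 and 1.66). *sox11.L* was at 191 and 314 CPM in the DMZ, against 62.7 and 85.6 CPM in the VMZ (adjusted p = 0.00161, log2 fold change 1.74 ± 0.28). *zic2.S*, a zinc finger gene of the plate, was at 84.3 and 199 CPM in the DMZ, against 40.2 and 37.2 CPM in the VMZ (adjusted p = 0.000457, log2 fold change 1.77 ± 0.25). All 3 genes were highest in DMZ replicate 2. *zic5.S* was at 3.15 and 4.61 CPM in the DMZ, against 1.01 and 0.90 CPM in the VMZ (adjusted p = 0.00168, log2 fold change 1.97 ± 0.33), with replicate levels that did not overlap. *celf3.S*, for an RNA-binding protein of neural tissue, was at 27.7 and 17.2 CPM in the DMZ, against 2.37 and 1.19 CPM in the VMZ (adjusted p = 2.56e-05, log2 fold change 3.69 ± 0.36). *irx2.L*, an iroquois gene, was at 43.0 and 74.0 CPM in the DMZ, against 7.11 and 9.25 CPM in the VMZ (adjusted p = 2.86e-05, log2 fold change 2.82 ± 0.29). These 2 genes differed by more than the replicates of either tissue. Among the proneural genes, which promote neuron formation, *neurog3.S* was at 5.09 and 4.86 CPM in the DMZ against 1.57 and 1.01 CPM in the VMZ (1.96 ± 0.38, adjusted p = 0.00486). *neurog3.S* was not called without VMZ replicate 2 (adjusted p = 0.0874). *sox3.L*, another SoxB1 gene, was at 301 and 372 CPM in the DMZ against 243 and 267 CPM in the VMZ and was not called (0.39 ± 0.27, adjusted p = 0.394). Of the 31 calls, 14 held with each library left out in turn. Without VMZ replicate 2 the list had 18 higher and 1 lower.

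In the non-neural ectoderm list 9 of 70 models were lower in the DMZ and 0 higher (median -0.53). The epidermal transcription factor gene *grhl1.S* was at 118 and 66.9 CPM in the DMZ, against 217 and 209.7 CPM in the VMZ (adjusted p = 0.00442, log2 fold change -1.24 ± 0.23). *grhl1.S* was not called without VMZ replicate 2 (adjusted p = 0.0507). *tfap2c.S*, of the epidermis and neural border, was at 101 and 81.0 CPM in the DMZ, against 242 and 342 CPM in the VMZ (adjusted p = 0.0192, log2 fold change -1.71 ± 0.40). *tfap2c.S* was not called without DMZ replicate 1 (adjusted p = 0.124), DMZ replicate 2 (0.106) or VMZ replicate 2 (0.194). *tp63.L*, for a regulator of stratified epidermis, was at 0.17 and 0.256 CPM in the DMZ, against 3.38 and 0.698 CPM in the VMZ (adjusted p = 0.0114, log2 fold change -3.38 ± 0.75). *tp63.L* was not called without DMZ replicate 1 (adjusted p = 0.33) or VMZ replicate 1 (0.0775). For all 3 both VMZ libraries were above both DMZ libraries, and *tp63.L* had a log2 fold change of -2.17 without VMZ replicate 1. *grhl3.L* was at 95.2 and 67.3 CPM in the DMZ against 235 and 296 CPM in the VMZ without passing the test (-1.73 ± 0.59, adjusted p = 0.0875). The keratin gene *krt12.S* overlapped between tissues, at 195 and 42.5 CPM in the DMZ against 302 and 101 CPM in the VMZ (-0.81 ± 0.54, adjusted p = 0.383). With 1 library left out 3 to 5 models were lower, and none of the 9 calls held in all 4 such fits.

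Adhesion genes had 9 of 78 models higher (5.22% of all models were) and 3 lower (3.44% of all), with a median of 0.09. The share of lower calls was near that of all models. *cdh2.L*, for N-cadherin, was at 37.0 and 13.4 CPM in the DMZ, against 2.34 and 1.08 CPM in the VMZ (adjusted p = 0.000397, log2 fold change 3.85 ± 0.50). Its copy *cdh2.S* was at 28.7 and 20.7 CPM in the DMZ, against 16.5 and 7.41 CPM in the VMZ (adjusted p = 0.0414, log2 fold change 1.1 ± 0.32). *cdh2.S* was not called without DMZ replicate 1 (adjusted p = 0.196), DMZ replicate 2 (0.097), VMZ replicate 2 (0.338) or the block (0.202). The DMZ libraries were the higher for both copies, by more for the L copy. *epha2.L*, for an Ephrin receptor, was at 267 and 246 CPM in the DMZ, against 94.8 and 87.9 CPM in the VMZ (adjusted p = 7.28e-06, log2 fold change 1.49 ± 0.13), with replicates close together in both tissues. *lrig3.S*, for a transmembrane protein with leucine-rich repeats, was at 201 and 215 CPM in the DMZ, against 35.1 and 23.0 CPM in the VMZ (adjusted p = 2.65e-05, log2 fold change 2.85 ± 0.28). *cdh3.L*, for C-cadherin, the main cadherin of the early frog embryo, was at 1019 and 875 CPM in the DMZ against 981 and 877 CPM in the VMZ and was not called (0.03 ± 0.10, adjusted p = 0.911).

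Extracellular matrix genes, which include integrins, laminins and matrix proteases, had 20 of 92 models higher and 1 lower (median 0.23). The integrin gene *itga6.L* was at 213 and 79.9 CPM in the DMZ, against 37.7 and 22.0 CPM in the VMZ (adjusted p = 0.000457, log2 fold change 2.23 ± 0.30), the one higher call of the list that held with each library left out. *vcan.L*, for the proteoglycan Versican, was at 54.7 and 43.8 CPM in the DMZ, against 22.5 and 4.3 CPM in the VMZ (adjusted p = 0.0182, log2 fold change 2.14 ± 0.49). *vcan.L* was not called without DMZ replicate 2 (adjusted p = 0.0708), VMZ replicate 2 (0.152) or the block (0.195). *nid2.L*, for a basement membrane nidogen, was at 325 and 269.7 CPM in the DMZ, against 203 and 178 CPM in the VMZ (adjusted p = 0.00371, log2 fold change 0.64 ± 0.12). *nid2.L* was not called without DMZ replicate 1 (adjusted p = 0.0536) or VMZ replicate 2 (0.0638). For these 3 genes the DMZ libraries lay above the VMZ libraries. *fn1.S*, for fibronectin, the substrate of migrating mesoderm, overlapped between tissues, at 1031 and 1202 CPM in the DMZ against 1180.2 and 925 CPM in the VMZ (0.07 ± 0.19, adjusted p = 0.863). With DMZ replicate 1 left out 2 matrix models were higher and 1 lower, with VMZ replicate 2 left out 3 and 0, and without the block 6 and 0.

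Planar cell polarity and movement genes had 9 of 82 models higher (5.22% of all models were) and 5 lower (3.44% of all). The median was -0.05, and 0.04 with upper quartile scaling. Apart from *fzd7*, *ror2* and *dvl3*, given above, *rhou.L*, for an atypical small GTPase, was lower, at 25.0 and 18.2 CPM in the DMZ, against 72.2 and 98.9 CPM in the VMZ (adjusted p = 0.00022, log2 fold change -1.95 ± 0.25). The formin gene *daam1.L*, whose product binds Dishevelled, was lower, at 64.0 and 68.9 CPM in the DMZ, against 100.4 and 134 CPM in the VMZ (adjusted p = 0.00354, log2 fold change -0.81 ± 0.15). Neither overlapped. *shroom3.L*, for an actin-binding protein of apical constriction, was at 28.0 and 20.1 CPM in the DMZ, against 10.4 and 9.52 CPM in the VMZ (adjusted p = 0.00287, log2 fold change 1.28 ± 0.23). *shroom3.L* was not called without DMZ replicate 1 (adjusted p = 0.0625). The core gene *vangl2.L* was at 256 and 176 CPM in the DMZ against 183 and 143 CPM in the VMZ (0.40 ± 0.14, adjusted p = 0.0912). The ligand gene *wnt11b.L* was at 313 and 243 CPM in the DMZ against 291 and 161 CPM in the VMZ (0.34 ± 0.17, adjusted p = 0.224). Neither passed the test, and the libraries of the tissues overlapped for both genes.

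**Figure D3:**
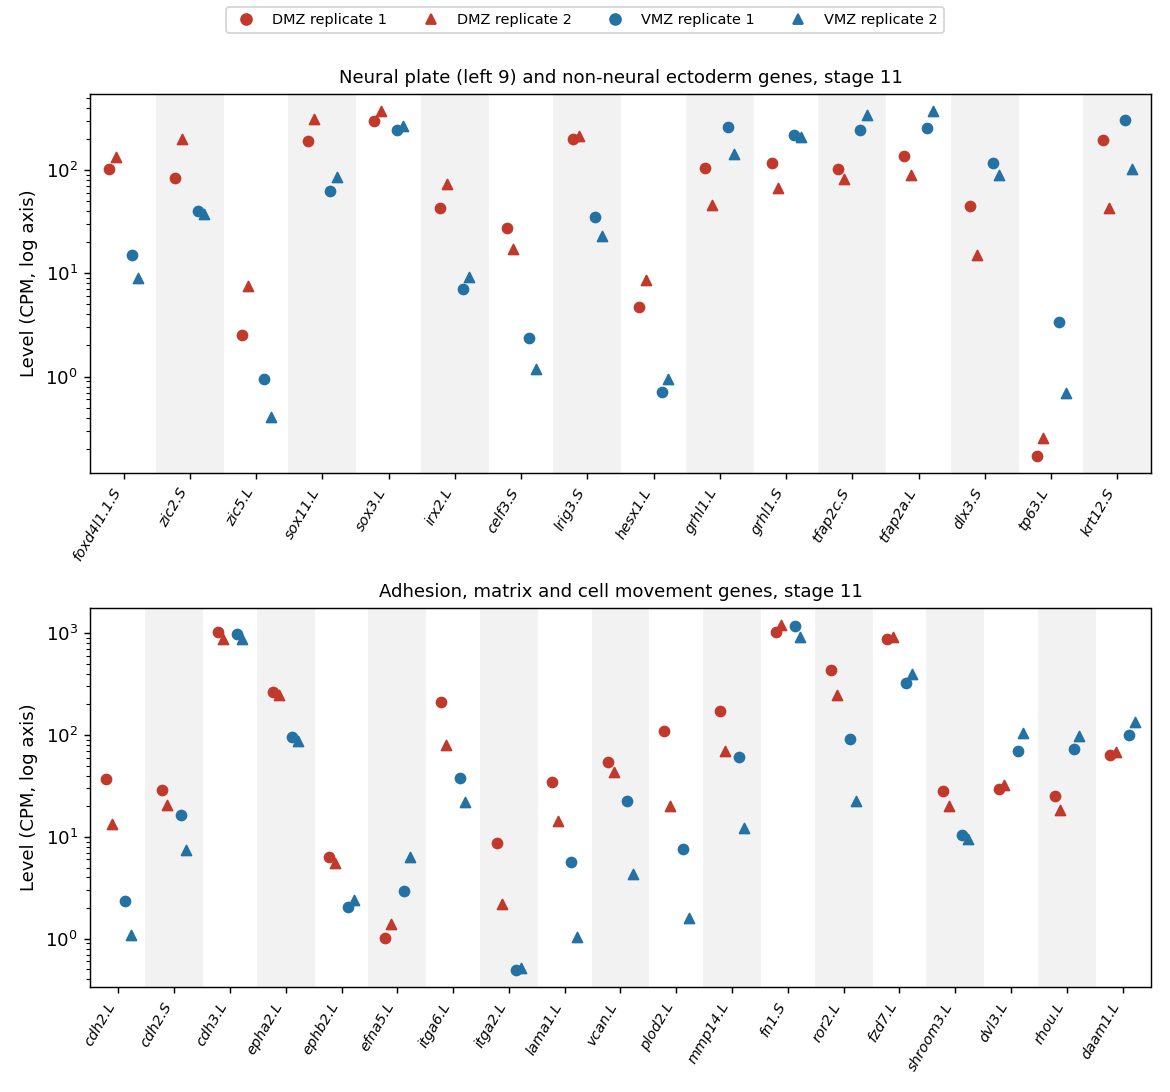
Levels in CPM (log axis) of neural plate and non-neural ectoderm genes (upper panel) and of adhesion, matrix and movement genes (lower panel) in the DMZ (red) and VMZ (blue) libraries at stage 11, with a circle for replicate 1 and a triangle for replicate 2. The *irx2.L* points stood at 43.0 and 74.0 CPM in the DMZ against 7.11 and 9.25 in the VMZ, *rhou.L* at 25.0 and 18.2 against 72.2 and 98.9, and those of *cdh3.L* overlapped.

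Immediate early and stress genes, which tissue handling can induce, had 7 of 80 models higher and 10 lower (median -0.21). Over all models the shares were 5.22% and 3.44%. The AP-1 genes were among the lower calls. *fosl1.L* was at 5.97 and 8.19 CPM in the DMZ, against 35.7 and 27.4 CPM in the VMZ (adjusted p = 0.021, log2 fold change -2.21 ± 0.55). *fosl1.L* was not called without DMZ replicate 1 (adjusted p = 0.175), DMZ replicate 2 (0.0865), VMZ replicate 1 (0.0966) or the block (0.0811). *junb.L* was at 32.2 and 30.6 CPM in the DMZ, against 150.1 and 106 CPM in the VMZ (adjusted p = 0.0125, log2 fold change -2.01 ± 0.44). *junb.L* was not called without DMZ replicate 1 (adjusted p = 0.139) or VMZ replicate 2 (0.0556). In both, the VMZ libraries were the higher without overlap. The chaperone gene *hspa8.L* was higher, at 3144 and 2270.2 CPM in the DMZ, against 2097 and 1540.0 CPM in the VMZ (adjusted p = 0.00478, log2 fold change 0.57 ± 0.11). *hspa8.L* was not called without DMZ replicate 1 (adjusted p = 0.0656), VMZ replicate 2 (0.0858) or the block (0.22). Of the 17 calls, that of *fos.S* (-1.87) was the one that held with each library left out. The part of dissection and culture in these differences was not tested.

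Germ plasm and maternal genes had 15 of 91 models lower and 4 higher (median -0.27). The linker histone gene of the oocyte *h1foo.L* was at 8.34 and 6.91 CPM in the DMZ, against 21.1 and 26.6 CPM in the VMZ (adjusted p = 0.00741, log2 fold change -1.59 ± 0.33). *h1foo.L* was not called without DMZ replicate 2 (adjusted p = 0.0716). The cyclin gene *ccnb1.S* was at 4.95 and 9.73 CPM in the DMZ, against 14.1 and 59.2 CPM in the VMZ (adjusted p = 0.0107, log2 fold change -2.07 ± 0.45). *ccnb1.S* was not called without DMZ replicate 1 (adjusted p = 0.0584), DMZ replicate 2 (0.0914), VMZ replicate 2 (0.122) or the block (0.186). *btg4.L*, for an adaptor of maternal RNA decay, was at 0.102 and 0.384 CPM in the DMZ, against 0.861 and 3.65 CPM in the VMZ (adjusted p = 0.00955, log2 fold change -3.27 ± 0.69). *btg4.L* was not called without DMZ replicate 1 (adjusted p = 0.14), VMZ replicate 2 (0.148) or the block (0.0608). VMZ replicate 2 was the highest library for all 3. Without that library the list had 1 lower and 0 higher, and without the block 4 and 2. The median log2 ratio of replicate 2 over replicate 1 for the list was 0.20 in the DMZ and 0.14 in the VMZ. The part of RNA carried over from the egg in VMZ replicate 2 was not tested.

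Mesoderm and endoderm lists gave opposite medians in the 2 pairs of libraries. Of 41 pan-mesodermal models 4 were higher (5.22% of all models were) and 3 lower (3.44% of all). Their median log2 difference was -1.48 in the replicate 1 pair and 1.01 in the replicate 2 pair. Over 53 endoderm models, of which 8 were higher and 5 lower, the medians were -1.7 and 0.59. The T-box gene *vegt.S* was at 245 and 371 CPM in the DMZ, against 684 and 343 CPM in the VMZ (adjusted p = 0.526, log2 fold change -0.83 ± 0.73). *mix1.L*, a mesendoderm homeobox gene, was at 8.0 and 22.3 CPM in the DMZ, against 42.1 and 19.4 CPM in the VMZ (adjusted p = 0.444, log2 fold change -1.41 ± 1.05). *eomes.L* was at 14.3 and 68.2 CPM in the DMZ, against 20.0 and 28.3 CPM in the VMZ (adjusted p = 0.693, log2 fold change 0.43 ± 0.56). *sox17a.L*, an endoderm gene, was at 0.237 and 7.3 CPM in the DMZ, against 16.7 and 5.4 CPM in the VMZ (adjusted p = 0.363, log2 fold change -2.17 ± 1.38). For *mix1.L* and *sox17a.L*, DMZ replicate 1 was the lowest library and VMZ replicate 1 the highest. *msgn1.L*, of the presomitic mesoderm, was lower in both pairs, at 1.15 and 3.58 CPM in the DMZ, against 38.2 and 5.11 CPM in the VMZ (adjusted p = 0.0951, log2 fold change -3.35 ± 1.17). None of these passed the test. The myogenic gene *myf5.S* was called higher, at 6.17 and 12.7 CPM in the DMZ, against 1.85 and 0.248 CPM in the VMZ (adjusted p = 0.0441, log2 fold change 3.1 ± 0.88). It was not called without DMZ replicate 1 (adjusted p = 0.108), DMZ replicate 2 (0.132) or VMZ replicate 2 (0.29), and its log2 fold change was 5.36 with VMZ replicate 1 left out and 2.02 with its replicate 2 left out.

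Of the 15 endoderm marker models summed above, 0 were called higher and 3 lower. Higher members of the endoderm list included genes outside that marker set. The 2 copies of *prdm14*, a zinc finger gene, were at 9.05 and 19.5 (L) and 26.0 and 43.8 (S) CPM in the DMZ, against 0.861 and 2.57 (L) and 3.2 and 4.88 (S) CPM in the VMZ (log2 fold changes 3.04 and 3.09). The LIM homeobox gene *lhx5.L*, known from the forebrain, was at 78.7 and 93.8 CPM in the DMZ against 47.6 and 49.5 CPM in the VMZ (0.82 ± 0.24, adjusted p = 0.0412). *lhx5.L* was not called without DMZ replicate 1 (adjusted p = 0.21), DMZ replicate 2 (0.0907), VMZ replicate 1 (0.0531), VMZ replicate 2 (0.312) or the block (0.182). *gata5.L*, an endoderm and heart gene, was lower, at 1.19 and 0.64 CPM in the DMZ against 8.83 and 3.44 CPM in the VMZ (-2.63 ± 0.66, adjusted p = 0.0211). *gata5.L* was not called without DMZ replicate 1 (adjusted p = 0.158), DMZ replicate 2 (0.0902), VMZ replicate 1 (0.112) or the block (0.0673). Without DMZ replicate 1 the called members of the endoderm list fell to 2 higher and 0 lower. The presomitic and muscle list had 3 of 57 models higher and 3 lower (median -0.14), and the lateral mesoderm, blood and heart list 4 of 55 higher and 3 lower (median -0.38), shares near those of all models.

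Hox and caudal genes, which mark posterior position, had 3 of 57 models higher and 2 lower (median -0.47), shares near the 5.22% and 3.44% of all models, and 0 and 0 without the block. The caudal gene *cdx1.S* was at 84.1 and 54.3 CPM in the DMZ, against 247 and 83.4 CPM in the VMZ (adjusted p = 0.0213, log2 fold change -1.16 ± 0.28), with DMZ replicate 1 a little above VMZ replicate 2. It was not called without DMZ replicate 1 (adjusted p = 0.159), DMZ replicate 2 (0.0849), VMZ replicate 1 (0.185) or the block (0.203), and its log2 fold change was -0.60 without VMZ replicate 1. *hoxb4.S* was at 1.59 and 1.79 CPM in the DMZ, against 0.523 and 0.0675 CPM in the VMZ (adjusted p = 0.0255, log2 fold change 2.59 ± 0.66). *hoxb4.S* was not called without DMZ replicate 1 (adjusted p = 0.111), DMZ replicate 2 (0.081), VMZ replicate 2 (0.215) or the block (0.0697). Its levels were low in all 4 libraries, and its log2 fold change was 4.32 without VMZ replicate 1.

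**Figure D4:**
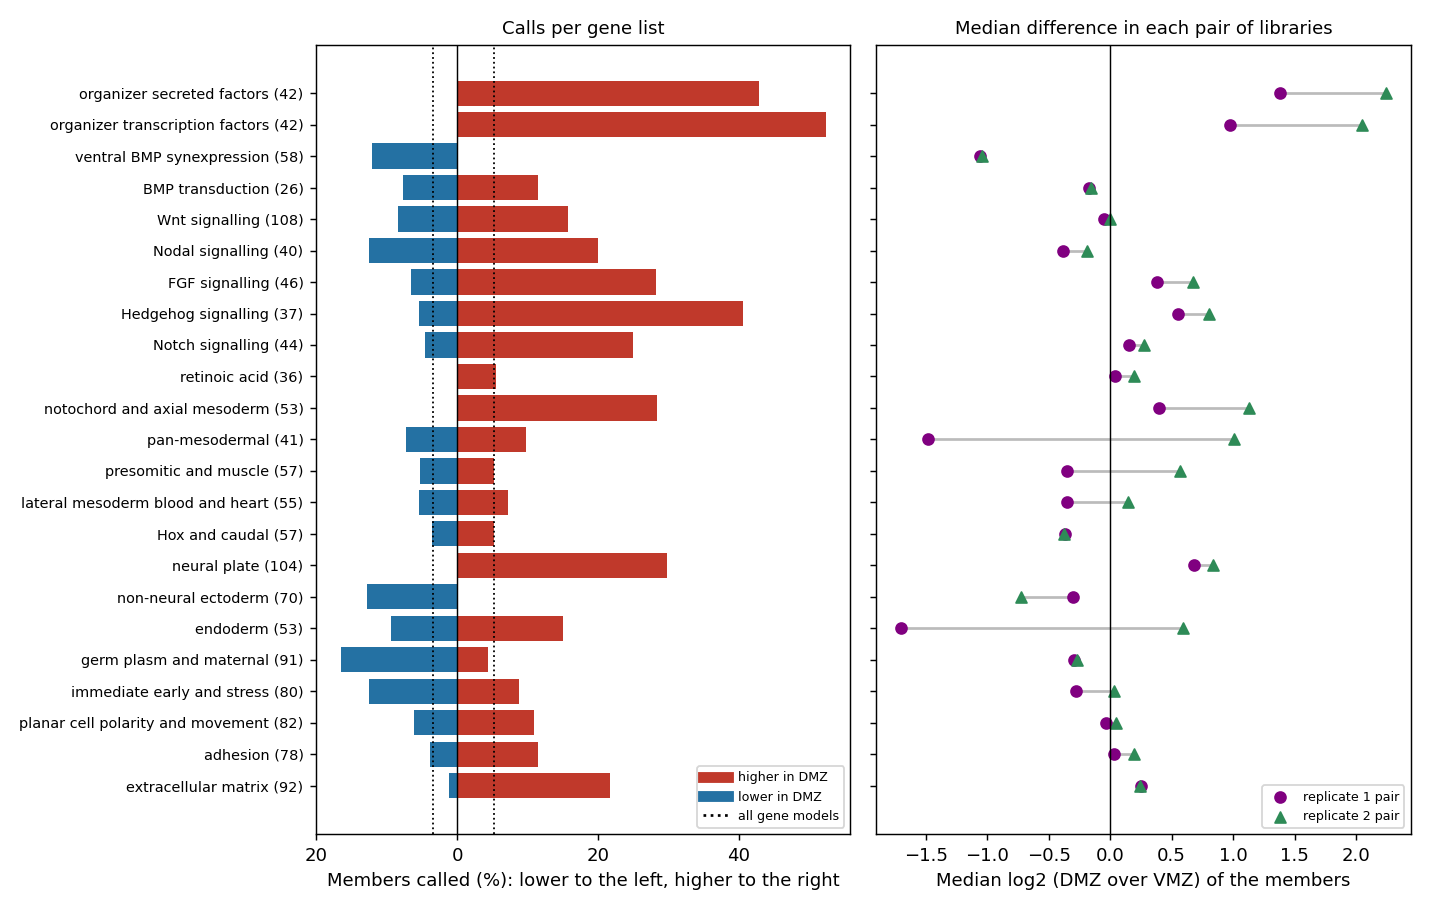
Left, percentage of tested models (number in brackets) of each gene list called higher (red, right) or lower (blue, left) in the DMZ, with dotted lines at 5.22% and 3.44%, the shares over all models. Right, median log2 difference (DMZ over VMZ) of each list in the replicate 1 pair (circles) and the replicate 2 pair (triangles), which lay on opposite sides of 0 for the pan-mesodermal list (-1.48 and 1.01) and the endoderm list (-1.7 and 0.59).

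Among the 20 named genes of largest rise, some were outside the lists. *cpn1.S*, for a carboxypeptidase N subunit, was at 15.1 and 9.73 CPM in the DMZ, against 0.123 and 0.045 CPM in the VMZ (adjusted p = 0.000123, log2 fold change 7.49 ± 0.87). *cyp2j2.L*, for a cytochrome P450 enzyme, was at 23.7 and 9.86 CPM in the DMZ, against 0.83 and 0.27 CPM in the VMZ (adjusted p = 2.12e-06, log2 fold change 4.96 ± 0.39). *ppp1r9b.L*, for the actin-binding protein Spinophilin, was at 9.8 and 3.97 CPM in the DMZ, against 0.215 and 0.18 CPM in the VMZ (adjusted p = 0.000156, log2 fold change 5.16 ± 0.63). In each, DMZ replicate 1 was the highest library. *adgrb2.S*, for an adhesion G protein-coupled receptor, was at 7.97 and 4.35 CPM in the DMZ, against 0.277 and 0.0225 CPM in the VMZ (adjusted p = 0.000457, log2 fold change 5.54 ± 0.77). *exoc3l1.L*, for a protein related to an exocyst subunit, was at 12.3 and 4.35 CPM in the DMZ, against 0.277 and 0.045 CPM in the VMZ (adjusted p = 0.000107, log2 fold change 5.73 ± 0.66). The VMZ levels stand for 4 and 2 counts of *cpn1.S* and 7 and 8 of *ppp1r9b.L*. They stand for 9 and 1 counts of *adgrb2.S* and 9 and 2 of *exoc3l1.L*, so the size of these folds rests on few counts. Absence of overlap between tissues was a condition of entry for all 20, so it is not a result for these genes.

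Among the 20 named genes of largest fall, *blvra.L*, for biliverdin reductase A, was at 5.39 and 7.94 CPM in the DMZ, against 94.1 and 59.9 CPM in the VMZ (adjusted p = 0.000311, log2 fold change -3.65 ± 0.47). *eya1.S*, a transcriptional coactivator gene of placodes, was at 1.25 and 3.07 CPM in the DMZ, against 19.4 and 16.0 CPM in the VMZ (adjusted p = 0.000155, log2 fold change -3.23 ± 0.40). Here too, absence of overlap between tissues was a condition of entry for the 20. *pmepa1.S*, for a membrane protein that binds Smads, was at 2.31 and 2.3 CPM in the DMZ, against 14.6 and 15.5 CPM in the VMZ (adjusted p = 0.00123, log2 fold change -2.7 ± 0.43). *pmepa1.L* was at 1.22 and 0.384 CPM in the DMZ, against 6.58 and 5.43 CPM in the VMZ (adjusted p = 0.00434, log2 fold change -2.82 ± 0.53). *aim1l.L* was at 1.32 and 0.384 CPM in the DMZ, against 18.3 and 3.38 CPM in the VMZ (adjusted p = 0.00876, log2 fold change -3.41 ± 0.71). *aim1l.L* was not called without DMZ replicate 1 (adjusted p = 0.126) or the block (0.0665).

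Where both homeologs were called, they mostly moved the same way. Of 5024 pairs with both copies tested, 909 had at least 1 copy called, and in 194 both were called, in the same direction for 188 (128 higher, 60 lower) and in opposite directions for 6. In the other 715 pairs 1 copy was called, L in 400 and S in 315, and the other copy had a log2 fold change of the same sign in 543. The share of pairs with the same sign over all 5024 was not worked out, so 543 has no background beside it. The ratio of L to S counts differed between DMZ and VMZ in 441 pairs (8.78%, limma with the block), with L favoured in the DMZ in 224 and S in 217. Without the block 167 pairs were called, without VMZ replicate 2 157, and 1177 had an unadjusted p under 0.05. kallisto, the tool named for counting, divides reads shared by similar transcripts by estimation, so the split between near-identical copies is uncertain.

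For *creb3l2*, which encodes a transcription factor of the secretory pathway, the log2 ratio of L to S counts was 1.06 and 1.08 in the DMZ libraries, against 3.37 and 3.45 in the VMZ libraries (difference -2.34 ± 0.17, adjusted p = 1.43e-06). The L copy stood at 90.5 and 62.2 CPM in the DMZ, against 92.6 and 60.1 CPM in the VMZ, and the S copy at 43.4 and 29.3 CPM in the DMZ, against 8.95 and 5.49 CPM in the VMZ. The difference thus lay in the S copy. For *pnp*, purine nucleoside phosphorylase, the log2 ratio was 4.44 and 4.31 in the DMZ libraries, against 0.35 and 0.04 in the VMZ libraries (difference 4.18 ± 0.50, adjusted p = 0.000199). Its L copy stood at 239 and 128 CPM in the DMZ, against 16.0 and 5.29 CPM in the VMZ, and its S copy at 11.0 and 6.4 CPM in the DMZ, against 12.5 and 5.16 CPM in the VMZ, so here the L copy differed. *vav2*, for an exchange factor of small GTPases, had a log2 ratio of -0.10 and -0.28 in the DMZ libraries, against -3.5 and -2.96 in the VMZ libraries (difference 3.04 ± 0.28, adjusted p = 1.00e-05). Its L copy was at 25.8 and 17.9 CPM in the DMZ, against 2.74 and 3.49 CPM in the VMZ, and the S copy at 27.6 and 21.8 CPM in the DMZ, against 31.0 and 27.3 CPM in the VMZ, with S overlapping between tissues.

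Opposite changes were seen in 2 of the 10 pairs of smallest adjusted p. *hs3st3a1*, for a heparan sulfate sulfotransferase, had a log2 ratio of -1.06 and -0.61 in the DMZ libraries, against 2.28 and 2.23 in the VMZ libraries (difference -3.09 ± 0.26, adjusted p = 3.95e-06). The L copy was lower in the DMZ, at 2.98 and 3.58 CPM in the DMZ, against 6.18 and 11.8 CPM in the VMZ, and the S copy higher, at 6.24 and 5.5 CPM in the DMZ, against 1.26 and 2.52 CPM in the VMZ. *lifr*, for the leukemia inhibitory factor receptor, had a log2 ratio of 1.1 and 1.53 in the DMZ libraries, against -0.74 and -0.44 in the VMZ libraries (difference 1.9 ± 0.18, adjusted p = 1.17e-05). Its L copy was higher, at 76.6 and 89.1 CPM in the DMZ, against 31.9 and 40.9 CPM in the VMZ, and its S copy lower, at 35.6 and 30.9 CPM in the DMZ, against 53.1 and 55.5 CPM in the VMZ. Neither copy of these pairs overlapped between tissues. *cdh2* changed unequally, with a log2 ratio of 0.36 and -0.62 in the DMZ libraries, against -2.81 and -2.76 in the VMZ libraries (difference 2.66 ± 0.22, adjusted p = 3.95e-06) and both copies called higher. For *cyp26c1* the ratio was 0.53 and 0.15 in the DMZ libraries, against 2.94 and 2.7 in the VMZ libraries (difference -2.48 ± 0.26, adjusted p = 5.08e-05), with the S copy called, and for *rarg* it was 0.26 and -0.20 in the DMZ libraries, against -0.88 and -1.08 in the VMZ libraries (difference 1.01 ± 0.12, adjusted p = 0.000148), with the L copy called. The other members of the 10 were *cdc42se2-like.1*, with the L copy called higher, and *sec22a*, with the L copy called lower. In none of the 10 did the ratio overlap between tissues, but these pairs were picked for small adjusted p in the same libraries.

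**Figure D5:**
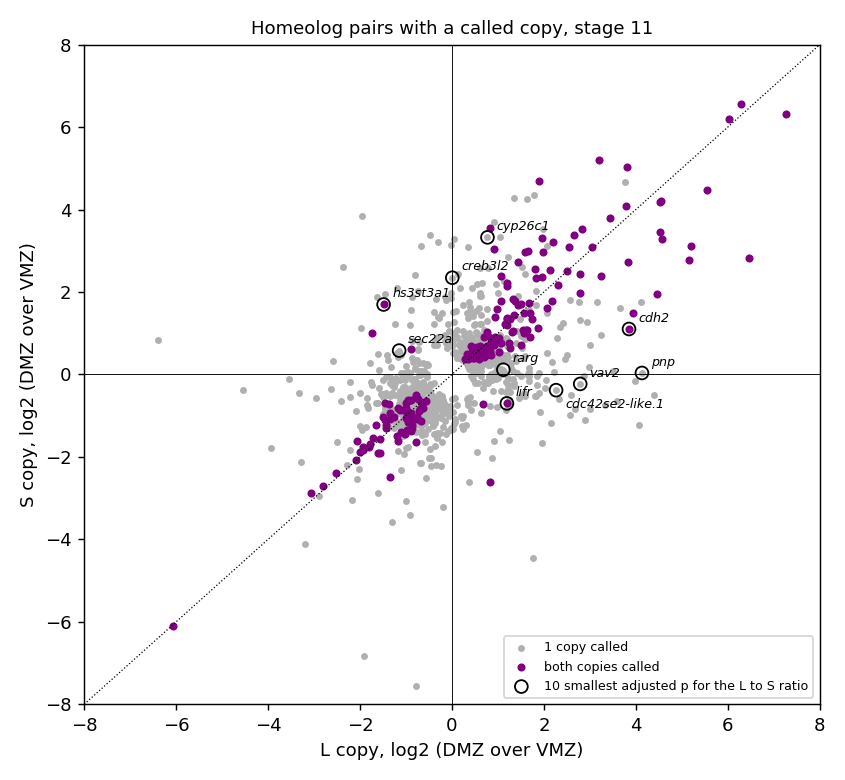
Log2 fold changes (DMZ over VMZ) of the L copy (x axis) and the S copy (y axis) for the 909 homeolog pairs with at least 1 copy called; 194 pairs with both called are purple, and circles mark the 10 pairs of smallest adjusted p for the ratio. The dotted line marks equal change. Of the 194, 188 lie in the quadrants where both copies changed in 1 direction, and *lifr* and *hs3st3a1* are among the 6 in the opposite ones.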

How the data were processed

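Both tables came from the authors. The first, as deposited, holds whole-number counts of 31694 models in 24 libraries. The other, also deposited, has 1 regularised log2 value per group. Per the submitters' processing notes, the tools were Trim Galore, kallisto and DESeq2. Versions, order of use, build and strand handling were not given in the sources used here, and antisense genes that overlap cannot be told apart. Similar copies and models of 1 name may share reads. No sequences or coordinates are printed.

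Counts were fitted in R 4.3.3 with edgeR 4.0.16 (filterByExpr, minimum count 10 and minimum total 15; TMM; robust quasi-likelihood fit of all 24 libraries with 12 groups and the replicate number as a block, 11 residual degrees of freedom, biological coefficient of variation 0.21). With 2 libraries a group, most of the information on spread comes from the other groups. Genes were called at an adjusted p under 0.05, two-sided. The SE is the absolute log2 fold change divided by the square root of F. L to S ratios, as log2 of counts plus 0.5, were tested with limma 3.58.1. DESeq2 1.42.0 was an alternative. The code was tested on simulated data.

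Libraries were paired by the replicate number in the labels, which do not say what that number stands for. In a check of the data, same-numbered libraries deviated from their group means together for 66 of 66 pairs of groups. The correlation was over 0.1 in each, with a lowest value of 0.24, and 0.49 for DMZ and VMZ.

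The gene lists, and the members and tests, were chosen with earlier results of these data known. The rule for names takes list members, the 20 largest rises and the 20 largest falls among called genes with a symbol (no overlap, and 5 CPM or more in the higher group), and the 10 homeolog pairs of smallest adjusted p. Only part of these is named, and some genes are not reported here.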

Additional observations from a re-analysis of the deposited data

How the results depend on the processing

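Without the replicate block 701 genes were higher and 284 lower, in place of 1635 and 1079, and 167 L to S ratios were called in place of 441. With the 4 compared libraries alone these counts were 574, 338 and 225, and with the 6 stage 11 libraries 1795 were lower. DESeq2 called 1802 lower, of its 4025 calls 2630 shared with the 2714. Against a fold of 1.5 (glmTreat) 431 were higher and 105 lower. With 1 library left out there were 452 to 1753 higher, 180 to 1469 lower and 157 to 433 ratios, and the group with 1 library was assumed to vary like the others. The causes were not tested. RLE scaling, other filters, no robust step and summed L and S counts kept both gene counts within 1.5 times, and upper quartile scaling raised the share of higher calls to 73.9%, against 60.2%.

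Of 118 named and called genes, 74 were called in each fit with 1 library left out, 94 without the block, 118 with RLE or upper quartile scaling, 111 with L and S counts summed and 83 against the fold of 1.5. *btg4.L*, lost to DESeq2, had no adjusted p there. None of the 118 changed direction under any setting run. The 10 named ratios were called under every setting run for ratios. DMZ replicate 2, with 7.38 M counts, limits what low levels show.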

Other observations

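Gene models that carry a LOC identifier in place of a symbol made up 632 of the 2714 called models and lie outside the rule for naming genes, so those given here were chosen after their values were seen. Of 8519 such models tested, 7229 were found in the RefSeq gene table of assembly Xenopus_laevis_v10.1, from which the names come. Organizer and neural genes were among the higher ones. LOC108716939, listed by RefSeq as *chrd.1.L*, was at 176 and 367 CPM in the DMZ, against 1.2 and 0.63 CPM in the VMZ (adjusted p = 1.54e-06, log2 fold change 8.23 ± 0.49). LOC108711112, listed as *lrig3.L*, was at 237 and 233 CPM in the DMZ, against 24.7 and 13.7 CPM in the VMZ (adjusted p = 8.14e-06, log2 fold change 3.62 ± 0.30), the partner of *lrig3.S*. LOC108701318, listed as *zeb2.L*, was at 88.8 and 121 CPM in the DMZ, against 29.4 and 11.6 CPM in the VMZ (adjusted p = 0.00168, log2 fold change 2.37 ± 0.37). All 3 were above the VMZ in both DMZ libraries. LOC108699673, listed as the protocadherin gene *pcdh18.L*, was at 20.2 and 20.6 CPM in the DMZ, against 2.92 and 3.13 CPM in the VMZ (adjusted p = 1.54e-06, log2 fold change 2.75 ± 0.21). LOC108702994, listed as the integrin gene *itga6.S*, was at 52.6 and 11.6 CPM in the DMZ, against 5.91 and 1.6 CPM in the VMZ (adjusted p = 0.00576, log2 fold change 3.08 ± 0.57). LOC108702994 was not called without DMZ replicate 1 (adjusted p = 0.102), VMZ replicate 2 (0.0888) or the block (0.0661). LOC399036, listed as the epidermal gene *tp63.S*, was lower, at 0.475 and 0.64 CPM in the DMZ, against 17.3 and 8.78 CPM in the VMZ (adjusted p = 0.0349, log2 fold change -4.73 ± 1.26). LOC399036 was not called without DMZ replicate 1 (adjusted p = 0.331), DMZ replicate 2 (0.0863), VMZ replicate 1 (0.0645), VMZ replicate 2 (0.12) or the block (0.0538). The protocadherin libraries lay close together within each tissue, and those of *itga6.S* and *tp63.S* were spread more widely without overlap.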
